A study of Caenorhabditis elegans with 6 samples.

Results

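The insulin signalling pathway of *Caenorhabditis elegans*, from the receptor gene *daf-2* to the transcription factor gene *daf-16*, was read in poly(A) RNA-seq of whole L1 larvae. Its 10 genes were chosen by name and matched to the gene identifiers of the count tables, so they are 10 of the 46904 genes counted. Wild-type (N2) larvae were compared with 2 strains that each lack a recognition factor of nucleotide excision repair, *csb-1*(ok2335) in line RB1801 for transcription-coupled repair and *xpc-1*(tm3886) in line TG2226 for global repair. Each strain had 2 libraries. No larva was treated, all were grown on plates with *E. coli*, and age, sex and hours of feeding are not given in the sources used here. Each library is an extract of many larvae, each mutant is 1 allele, and nothing states that the libraries of a strain came from separate cultures, so p-values measure the spread between these libraries, which may be technical.

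In this pathway, insulin-like peptides bind the receptor DAF-2. The receptor and its docking protein IST-1 recruit the lipid kinase AGE-1 with its adaptor AAP-1, and the lipid that AGE-1 makes is removed by the phosphatase DAF-18. The lipid brings PDK-1 to the kinases AKT-1, AKT-2 and SGK-1, and the AKT kinases keep the FOXO factor DAF-16 out of the nucleus. In hatched larvae without food the signal is low, DAF-16 and DAF-18 are needed for L1 arrest, and feeding raises the signal and lets growth begin. Transcript levels do not show phosphorylation or where DAF-16 is in the cell.

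Depth ranged from 41643033 to 48371365 reads on genes per library. Across the 18421 genes that reached 10 counts in 2 or more of the 6 libraries, log2 ratios between the libraries of a strain had an SD of 0.594 in wild-type, 0.648 in *xpc-1* and 2.49 in *csb-1*. Ribosomal protein genes took between 4.65% and 11.0% of the reads in 5 libraries and 23.4% in *csb-1* replicate 2. The *csb-1* libraries are therefore given singly below. The targeted gene *xpc-1* had 43.5 and 40.1 CPM in wild-type and 18 and 17.9 CPM in its mutant, whereas *csb-1* had 20.6 and 22.9 CPM in wild-type and 17.5 and 8.04 CPM in its mutant. CPM are read counts scaled to a common depth, here with edgeR's TMM factors over all 6 libraries. Markers of muscle, gut, epidermis, neurons and germline were all detected in every library. In *csb-1* replicate 2 the epidermal collagen gene *dpy-7* was at 0.0574 CPM, against 96.8 to 316 CPM in the other libraries. The 8 markers of adult gut and oocytes summed to 23.8 and 25.2 CPM in wild-type, 64.6 and 72.5 in *xpc-1*, 89.1 in *csb-1* replicate 1 and 6.26 in replicate 2. Of this list 2 genes of 8 were called in *xpc-1*, the oocyte genes *oma-1* and *rme-2*, both higher. None of the *vit* genes, the markers of adult gut, was called. The largest part of the sum in *xpc-1* was *oma-1*, with 10.8 and 12.4 CPM in wild-type against 47.3 and 52.6 CPM in *xpc-1*. Of the 10 tissue markers 4 rose in *xpc-1*, the germline genes *pgl-1* and *glh-1* among them, and 4 fell, among them the muscle myosin genes *unc-54* and *myo-3*, though with a library left out 3 rose and between 0 and 2 fell. The other called markers split within their tissue. Epidermal *dpy-7* rose 2.01-fold while *elt-3* fell to 0.816 of wild-type, and neuronal *unc-119* rose 1.48-fold while *rab-3* fell to 0.721. Among all genes tested in *xpc-1*, 20.0% passed the test as higher and 17.1% as lower. The part of these shifts in the results on the pathway was not tested.

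All 10 genes were expressed in wild-type larvae, and all lay above the median of the 25250 genes detected there. Levels between genes are given in TPM, which divides reads by the exon length of the gene and scales each library to 1 total. The forkhead factor gene *daf-16* was highest with 69.8 and 72.7 TPM, at percentile 91.2 of expressed genes. It was followed by *akt-1* with 53.8 and 54.9 TPM and by *akt-2* with 36.2 and 36.6 TPM. So the genes of the 2 AKT kinases and of their target had the pathway's most abundant transcripts per length. *sgk-1*, whose product also acts downstream of PDK-1, stood at rank 8. The receptor gene *daf-2* stood at rank 4 with 29.5 and 28.9 TPM. The adaptor gene *aap-1*, the kinase gene *pdk-1* and the phosphatase gene *daf-18* lay close together, between 21.6 and 25.5 TPM in single libraries, and neighbours among these 3 overlapped in range. Below them stood *sgk-1* with 18.5 and 17.4 TPM, *age-1* with 14.4 and 15.0 TPM and the docking protein gene *ist-1* with 10.9 and 9.89 TPM, at percentile 62.2. No other neighbours in this order overlapped, and both wild-type libraries gave the same order of all 10 genes. The order depends on length: with the length of the whole gene, introns included, instead of exon length, *akt-1* ranked first and *daf-16* at rank 5, and *daf-2*, which spans 45374 bases, fell from rank 4 to rank 8.

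**Figure D1:**
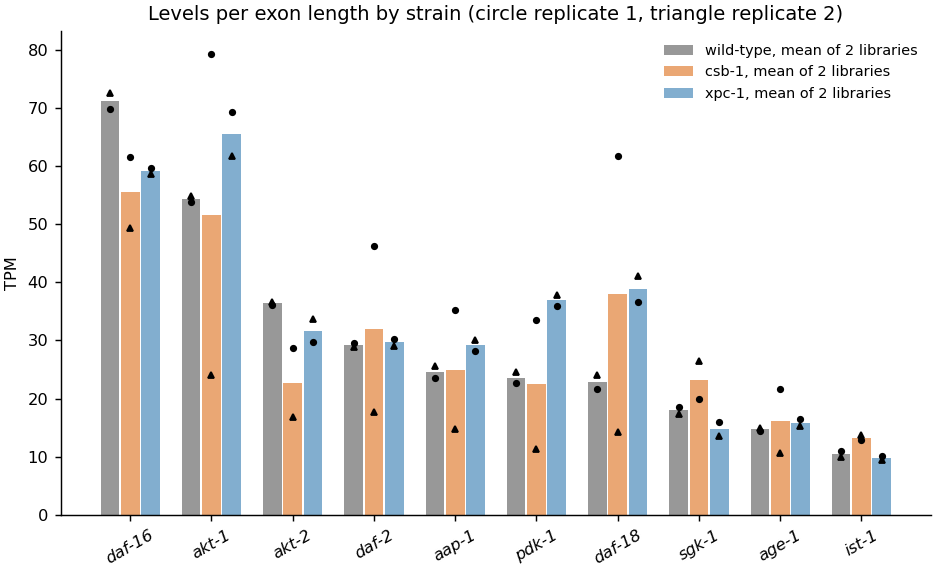
TPM of the 10 pathway genes (vertical axis) by strain, ordered by the wild-type mean; bars are means of 2 libraries, circles replicate 1 and triangles replicate 2. In wild-type the order runs from *daf-16* at 71.2 TPM to *ist-1* at 10.4 TPM. In these TPM, scaled without TMM factors, the *csb-1* libraries stand far apart for most genes.

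The order was not the same in the mutants. In *xpc-1*, *akt-1* stood above *daf-16* in both libraries, with 69.3 and 61.7 TPM against 59.7 and 58.7 TPM. In the same strain *daf-18* rose from rank 7 to rank 3 with 36.5 and 41.2 TPM, and *pdk-1* from rank 6 to rank 4 with 35.9 and 37.8 TPM. In *csb-1* the ranges of all neighbours overlapped, so no full order can be given for that strain. TPM carry no TMM factors, and that of *csb-1* replicate 2 was 0.720, so the width of these ranges depends on the scaling. Both *csb-1* libraries put *akt-1* above *daf-18*, *daf-2* above *aap-1* and *pdk-1* above *age-1*, and they disagreed on the other neighbours. Genes further apart could be ordered, such as *daf-16* with 61.6 and 49.4 TPM above *age-1* with 21.6 and 10.6 TPM. With TMM factors *daf-16* was instead lower in replicate 1 than in replicate 2, at 166 against 287 CPM.

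The comparison of *xpc-1* with wild-type asks whether the pathway's transcripts differ in larvae without global repair. In the fit of these 4 libraries, *daf-18* and *pdk-1* rose, *daf-16* and *sgk-1* fell, and the other 6 genes did not pass the test. Of all 17924 genes tested, 37.1% were called (edgeR's quasi-likelihood test, Benjamini-Hochberg adjusted p under 0.05), 20.0% higher and 17.1% lower. The pathway's 4 of 10 is a share close to that of all genes, so it marks no excess of change in the pathway. In RNA of whole larvae, fewer cells of a type and less RNA per cell cannot be told apart. The median log2 fold change was -0.015 over the 10 genes and -0.017 over all genes. With all 6 libraries in 1 fit, which takes 1 spread for all strains, no gene of 18421 was called, 267 had an unadjusted p under 0.05, and *daf-18*, *pdk-1*, *daf-16* and *sgk-1* each had an adjusted p of 0.948. The calls below thus hold only where *xpc-1* and wild-type are judged by their own spread.

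**Figure D2:**
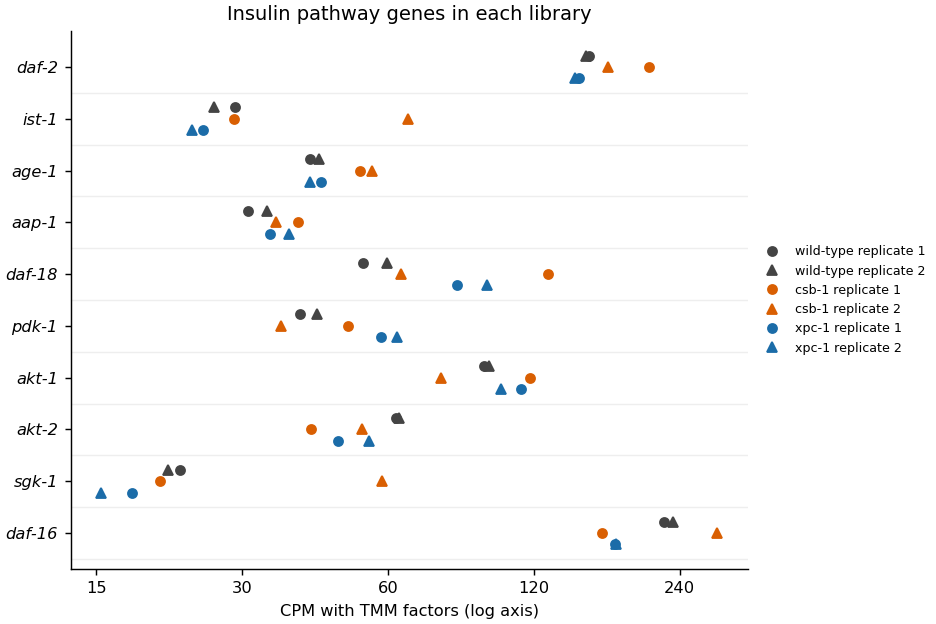
CPM with TMM factors (log axis) of the 10 pathway genes in each library, coloured by strain, circles for replicate 1 and triangles for replicate 2. Both *xpc-1* libraries lie above both wild-type libraries for *daf-18* and *pdk-1* and below them for *daf-16* and *sgk-1*, while *csb-1* replicate 2 lies apart for *sgk-1* and *ist-1*.

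Neither gene at the receptor end of the pathway passed the test in *xpc-1*. *daf-2* (WBGene00000898, chromosome III of WBcel235, 2995487 to 3040860, minus strand) had 156 and 154 CPM in wild-type against 148 and 146 CPM in *xpc-1*. The *xpc-1* libraries lay below wild-type by a narrow margin, -0.06 ± 0.08 (SE) on the log2 scale (adjusted p = 0.635 by edgeR). *ist-1* (WBGene00002163, chromosome X, 7126648 to 7139646, plus strand), whose product links the receptor to the lipid kinase, had 29.0 and 26.3 CPM in wild-type against 24.9 and 23.7 CPM in *xpc-1*. The fitted change was -0.17 ± 0.11 on the log2 scale (SE, adjusted p = 0.285 by edgeR).

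The lipid kinase and its adaptor were near wild-type, and the phosphatase that opposes them was higher. *age-1* (WBGene00000090, chromosome II, 11519323 to 11527062, minus strand), the catalytic subunit, had 41.4 and 43.2 CPM in wild-type against 43.7 and 41.5 CPM in *xpc-1*, and the strains overlapped. *aap-1* (WBGene00000001, chromosome I, 5107833 to 5110183, plus strand), the regulatory subunit, had 30.9 and 33.7 CPM in wild-type against 34.2 and 37.5 CPM in *xpc-1*. Both *xpc-1* libraries of *aap-1* were higher, but the log2 fold change of 0.17 (standard error 0.11) did not pass the test (adjusted p = 0.262 by edgeR). *daf-18* (WBGene00000913, chromosome IV, 419938 to 425181, minus strand), which removes the lipid that AGE-1 makes, had 53.2 and 59.8 CPM in wild-type against 83.4 and 96.2 CPM in *xpc-1*. The strains did not overlap, and *daf-18* rose 1.61-fold, or 0.69 ± 0.11 (SE) on the log2 scale (adjusted p = 0.00125 by edgeR). With each of the 4 libraries left out in turn it stayed called, with log2 fold changes of 0.57 to 0.79 and adjusted p of 0.0014 to 0.0179.

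Among the kinases, *pdk-1* rose and *sgk-1* fell. *pdk-1* (WBGene00003965, chromosome X, 1321353 to 1327985, plus strand), which activates the kinases downstream of it, had 39.5 and 42.9 CPM in wild-type against 58.0 and 62.6 CPM in *xpc-1*. This was a 1.48-fold rise without overlap, or 0.57 ± 0.10 (SE) on the log2 scale (adjusted p = 0.00224 by edgeR), and it stayed called without any 1 of the 4 libraries (adjusted p of 0.00545 to 0.0282). *sgk-1* (WBGene00004789, chromosome X, 16254843 to 16262151, minus strand), a kinase related to the AKT kinases, had 22.3 and 21 CPM in wild-type against 17.8 and 15.4 CPM in *xpc-1*. Its fold of 0.774, a log2 fold change of -0.37 (standard error 0.13), lay just inside the threshold (adjusted p = 0.0499 by edgeR). That call was lost with DESeq2 (adjusted p = 0.0659), with library size only (0.0601), and without either library of wild-type (0.149 without replicate 1, 0.0950 without replicate 2) or of *xpc-1* (0.0625 and 0.276).

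The AKT genes did not pass the test, and *akt-2* lay close to its threshold. *akt-1* (WBGene00000102, chromosome V, 10248907 to 10252895, plus strand) had 94.6 and 96.9 CPM in wild-type against 113 and 103 CPM in *xpc-1*, a difference of 0.19 ± 0.09 (SE) on the log2 scale (adjusted p = 0.133 by edgeR). *akt-2* (WBGene00000103, chromosome X, 14147700 to 14152070, plus strand) had 62.2 and 63.3 CPM in wild-type against 47.4 and 54.9 CPM in *xpc-1*, a difference of -0.28 ± 0.10 (SE) on the log2 scale (adjusted p = 0.0594 by edgeR), and 4 of 13 alternative fits called it. Neither pair of strains overlapped. Within a library the ratio of *akt-1* to *akt-2* does not depend on how libraries are scaled. In TPM it was 1.49 and 1.5 in wild-type against 2.33 and 1.83 in *xpc-1*, so *akt-1* outweighed *akt-2* more in both *xpc-1* libraries.

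*daf-16* (WBGene00000912, chromosome I, 10750343 to 10776700, plus strand), the factor on which the pathway converges, had 223 and 233 CPM in wild-type against 176 and 177 CPM in *xpc-1*. It fell to 0.787 of wild-type without overlap, or -0.35 ± 0.09 (SE) on the log2 scale (adjusted p = 0.0118 by edgeR). The size held with each library left out (log2 fold changes of -0.41 to -0.33), whereas the call did not: the adjusted p was 0.0538 without wild-type replicate 2, 0.0979 without *xpc-1* replicate 1, 0.0933 without *xpc-1* replicate 2 and 0.0258 without wild-type replicate 1. *daf-16* has several isoforms that counts over the whole gene do not separate. Without overlap of the strains, 4 of the 10 genes lay above wild-type in *xpc-1*, beside 33.3% of all genes tested, and 5 lay below, beside 36.0%. Together these are 9 of 10 beside 69.3%, and the same 9 genes were so placed with library size only. The share of all genes was not computed for that scaling.

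**Figure D3:**
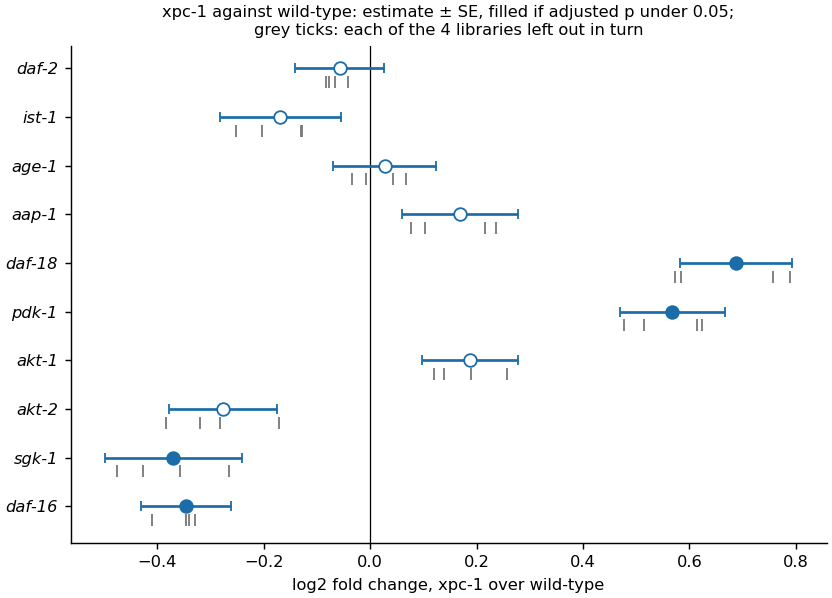
Log2 fold change of *xpc-1* over wild-type for the 10 pathway genes, in the order of the pathway; circles with bars are the edgeR estimate ± its standard error, filled where the adjusted p is under 0.05, and grey ticks are the estimates with each of the 4 libraries left out. *daf-18* and *pdk-1* stand at 0.69 and 0.57, *daf-16* and *sgk-1* at -0.35 and -0.37.

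In *csb-1*, which lacks transcription-coupled repair, no pathway gene and none of 17730 genes was called in the fit of 4 libraries with wild-type, a background of 0%. At an unadjusted p under 0.05 edgeR had 507 of these genes. DESeq2 called 69 (0.413% of the 16698 genes to which it gave an adjusted p), none of the 10. The 10 genes had log2 fold changes of -0.40 to 0.86, with standard errors of 0.27 to 0.61. Both *csb-1* libraries lay above both wild-type libraries for *daf-2*, *age-1*, *aap-1* and *daf-18*, and below for *akt-2*. These are 4 of 10 beside 13.6% of all genes above, and 1 of 10 beside 19.4% below. This rests on the scaling, since *csb-1* replicate 2 had a TMM factor of 0.720 and the other libraries had factors of 1.04 to 1.08. With library size only, *akt-2* alone of the 5 stayed on its side, at 66.8 and 65.8 CPM in wild-type and 45.2 and 38.1 CPM in *csb-1*. *ist-1* then lay above and *daf-16* below wild-type in both libraries. That scaling moved the median log2 fold change of all genes by -0.24. The share of all genes on each side was not computed for it, so these placements have no background.

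The *csb-1* libraries differed from each other in the pathway. With TMM factors the fold between them passed 2 for 3 of the 10 genes, *sgk-1*, *ist-1* and *daf-18*, beside 57.4% of the genes tested, with a median of 1.45-fold over the 10 genes and 2.37-fold over all genes. With library size only, *daf-18* (3.03-fold), *akt-1* (2.29-fold) and *pdk-1* (2.07-fold) passed it, again 3 of 10, beside 61.7% of all genes, with medians of 1.74-fold and 2.55-fold. *sgk-1* (1.91-fold), *ist-1* (1.52-fold) and *daf-16* (1.15-fold) then did not. In wild-type and in *xpc-1* no pathway gene passed 2-fold between libraries, and the largest was 1.12-fold and 1.16-fold, beside 8.64% and 9.53% of all genes past 2-fold. *sgk-1* had 20.3 CPM in *csb-1* replicate 1, near its 22.3 and 21 CPM in wild-type, and 58.3 CPM in replicate 2. *ist-1* had 28.8 and 66.1 CPM in the same order, against 29.0 and 26.3 CPM in wild-type. Both genes were thus near wild-type in one library and the highest of all 6 libraries in the other, also with library size only. *daf-18* was the reverse, at 129 CPM in replicate 1 against 63.7 CPM in replicate 2, and *daf-16* had 166 and 287 CPM.

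**Figure D4:**
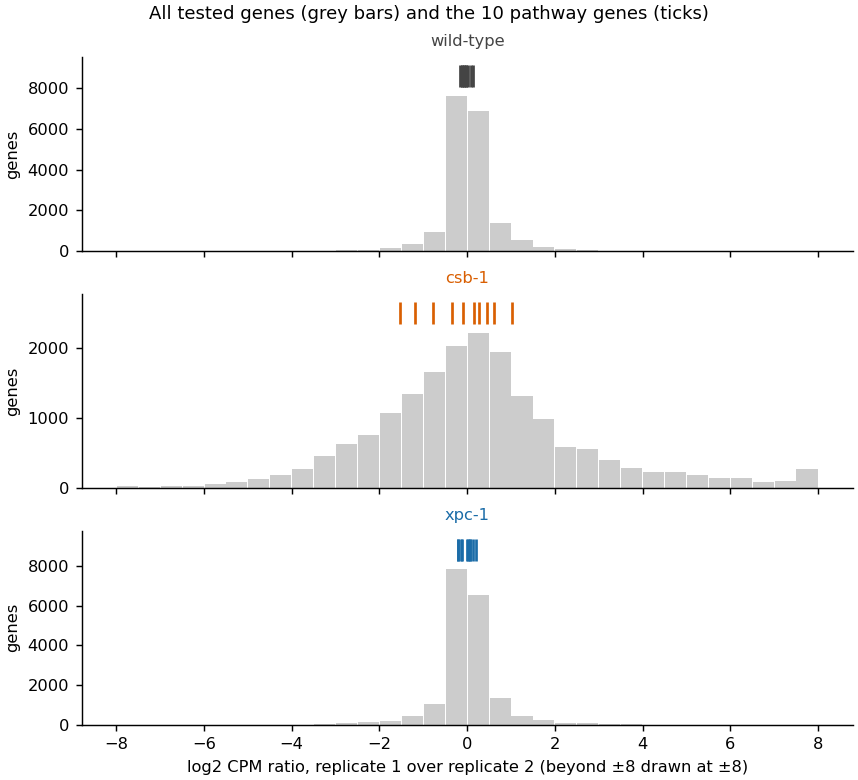
Number of genes (vertical axis) by log2 CPM ratio of replicate 1 over replicate 2 in each strain, over the 18421 tested genes in bins of 0.5; coloured ticks above mark the 10 pathway genes. The pathway genes sit near 0 in wild-type and *xpc-1* and spread from -1.52 to 1.01 in *csb-1*.

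Each *csb-1* library was also set alone against wild-type, which takes the lone library to vary as wild-type does and compares libraries, not strains. In replicate 1, *daf-18* was 2.30-fold higher (log2 fold change 1.20, standard error 0.13, adjusted p = 2.06e-05 by edgeR) and *daf-2* 1.35-fold higher (0.43, standard error 0.13, adjusted p = 0.0152). In that library *daf-16* was at 0.738 of wild-type (-0.44, standard error 0.14, adjusted p = 0.0199 by edgeR) and *akt-2* at 0.672 (-0.57, standard error 0.14, adjusted p = 0.00394). These 4 of 10 stand beside 55.9% of all genes called for that library, and all 4 remained past the threshold with library size only, where *akt-1* also passed it (1.26-fold, adjusted p = 0.0419 by edgeR), which makes 5 of 10 beside 53.9% of all genes. In replicate 2, 3 of 10 were called beside 53.9% of all genes, which were 4198 higher and 5117 lower, or 1758 higher and 8200 lower with library size only. With library size only the members called were 8 of 10, beside 57.6% of all genes. *sgk-1* was 2.68-fold higher (log2 fold change 1.42, standard error 0.14, adjusted p = 1.13e-05 by edgeR), *ist-1* was 2.38-fold higher (1.25, standard error 0.14, adjusted p = 2.64e-05) and *age-1* was 1.31-fold higher (0.39, standard error 0.13, adjusted p = 0.0303). With library size only, *sgk-1* and *ist-1* stayed higher by 1.83-fold and 1.63-fold, whereas *age-1* turned to 0.895 of wild-type. *pdk-1*, *akt-1* and *akt-2* lay below wild-type in both scalings, and passed the test only with library size only: *pdk-1* at -0.20 and -0.75 on the log2 scale (adjusted p = 0.277 and 0.00315 by edgeR), *akt-1* at -0.31 and -0.86 (0.0659 and 0.00091), and *akt-2* at -0.25 and -0.80 (0.137 and 0.00149). For replicate 2 the direction of *daf-2*, *aap-1*, *age-1*, *daf-18* and *daf-16* changed with the scaling, so no direction is given for these.

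**Figure D5:**
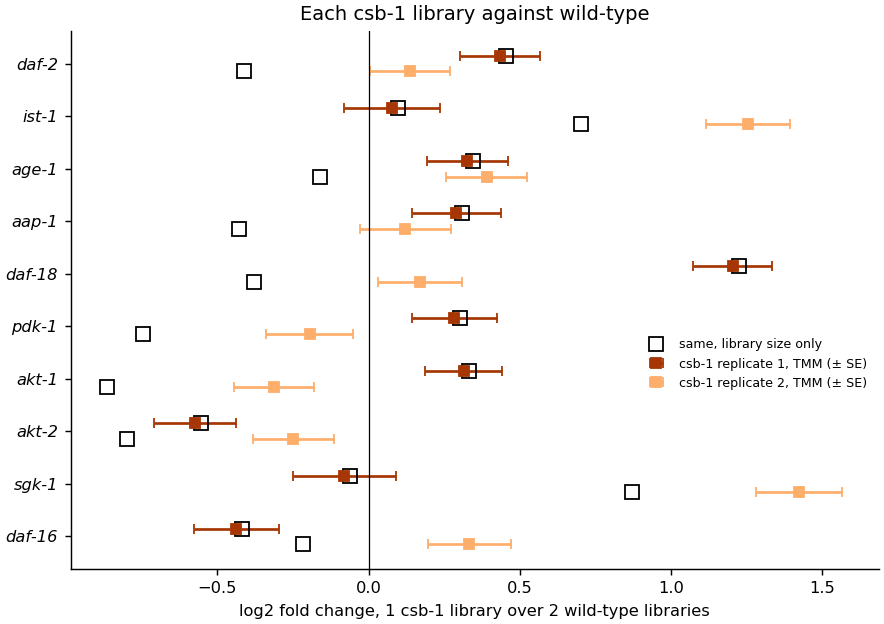
Log2 fold change of each *csb-1* library alone over the 2 wild-type libraries for the 10 pathway genes; filled squares with bars are edgeR estimates ± standard error with TMM factors, open squares the same with library size only. Both scalings nearly coincide for replicate 1, and for replicate 2 only *sgk-1* and *ist-1* are above 0 in both.

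Ratios of genes within a library do not depend on scaling. The ratio of *age-1* to *daf-18*, the lipid kinase over the phosphatase that reverses it, was 0.668 and 0.62 in wild-type, 0.449 and 0.370 in *xpc-1*, and 0.350 and 0.749 in *csb-1* replicates 1 and 2. The ratio of *daf-16* to *daf-2* was 2.37 and 2.51 in wild-type, 1.98 and 2.02 in *xpc-1*, and 1.33 and 2.79 in *csb-1*. That of *sgk-1* to *akt-1* was 0.344 and 0.317 in wild-type, 0.230 and 0.218 in *xpc-1*, and 0.251 and 1.10 in *csb-1*, and that of *akt-1* to *akt-2* was 2.77 and 1.43 in *csb-1*. The ratio of *age-1* to *aap-1*, the subunits of the lipid kinase, was 0.612 and 0.586 in wild-type, 0.584 and 0.505 in *xpc-1*, and 0.614 and 0.721 in *csb-1*. Both *csb-1* libraries lay above wild-type and both *xpc-1* libraries below. For replicate 1 of each mutant the margin was smaller than the difference between the wild-type libraries, so no side is read from it. In the other 4 of these 5 ratios *csb-1* replicate 1 lay to the same side of wild-type as the 2 *xpc-1* libraries, and *csb-1* replicate 2 on the other side. The pairs were chosen with the fold changes known, all strains share the wild-type libraries, and with 2 libraries per strain no test of these ratios was run.

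Reads on the exons of more than 1 gene were not counted, and strand was not used. Of the 10 genes, 5 share exon bases with another gene. The largest shares are 109 bases of *aap-1* (6.0% of its exon length) with *Y110A7A.21* on the opposite strand and 192 bases of *age-1* (4.83%) with *B0334.10*, which had at most 14 reads. *akt-1* shares 75 bases (3.09%) with *rop-1*, a gene for an RNA-binding protein on the opposite strand that had 15611 and 14354 reads in wild-type against 6730 and 6642 in *xpc-1*. *daf-18* shares 21 bases with *eri-1*, and *daf-16* shares 84 bases with *H36N01.5*, which had no reads. Reads antisense to a gene outside these stretches would count for it, and this cannot be resolved here.

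Ligands of the receptor were read next, followed by regulators and targets of DAF-16, and each list is set beside the same background of 20.0% of genes higher and 17.1% lower. Of 5 insulin-like peptide genes 1 was called in *xpc-1*, and 2 in 7 of the 9 alternative fits that kept all libraries. The gene called was *ins-18*, whose product is known to oppose DAF-2. It had 17 and 17.9 CPM in wild-type against 9.62 and 8.93 CPM in *xpc-1* and fell by 0.90 on the log2 scale (standard error 0.14, adjusted p = 0.00119 by edgeR). *ins-1*, another antagonist, had 17.9 and 17.8 CPM in wild-type against 15.4 and 19.6 CPM in *xpc-1*. In *csb-1*, *ins-18* had 3.71 and 16 CPM. The agonist gene *daf-28* is named after its values were seen: it had 2.68 and 4.06 CPM in wild-type, 1.29 and 2.07 CPM in *xpc-1* (0.506-fold, adjusted p = 0.0501 by edgeR, called in 8 of 13 alternative fits), 0.555 CPM in *csb-1* replicate 1 and 75.2 CPM in replicate 2.

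Of 14 regulators of the pathway or of DAF-16, 3 rose in *xpc-1* and 1 fell, with a median log2 fold change of 0.16. *hcf-1*, whose product restrains DAF-16 at its targets, had 96.7 and 87.9 CPM in wild-type against 146 and 149 CPM in *xpc-1*, a 1.62-fold rise (adjusted p = 0.000522 by edgeR). *eak-7*, which acts beside the AKT kinases to hold DAF-16 back, rose 1.61-fold from 54.8 and 59.3 CPM to 88.5 and 93.0 CPM (adjusted p = 0.000595 by edgeR). *cst-1*, a kinase gene of the Hippo family, rose 1.28-fold (adjusted p = 0.023 by edgeR), a call that of the 4 fits with a library left out held only without *xpc-1* replicate 1 (adjusted p of 0.0451 to 0.137). *pqm-1*, a zinc finger factor that leaves the nucleus when DAF-16 enters it, fell to 0.523 of wild-type, from 58.1 and 65.5 CPM to 31.8 and 32.1 CPM (adjusted p = 0.000235 by edgeR). In *csb-1* replicates 1 and 2, *pqm-1* had 19.8 and 108 CPM.

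Targets of DAF-16 were divided by the direction in which DAF-16 is known to drive them, mostly from work on adults. Of 10 genes that rise with DAF-16 activity, 9 could be tested, 1 rose and 1 fell in *xpc-1*, and the median log2 fold change was -0.26. The lysozyme gene *lys-7* fell from 2.62 and 3.07 CPM to 0.757 and 0.270 CPM (log2 fold change -2.44, standard error 0.47, adjusted p = 0.00375 by edgeR). The size of this fall is uncertain at such low levels: with each library left out the log2 fold change of *lys-7* ran from -3.36 to -1.88. *cki-1*, a cyclin-dependent kinase inhibitor that DAF-16 raises in L1 arrest, rose 1.46-fold from 59.6 and 73.5 CPM to 90.1 and 102 CPM (adjusted p = 0.00639 by edgeR). The call of *cki-1* was lost without wild-type replicate 1 (adjusted p = 0.0568 by edgeR) and held without any other library. Of 8 genes that fall with DAF-16 activity, 6 could be tested and 4 were called, all lower, with a median log2 fold change of -0.66. They were *dod-24*, *dod-17* and *dod-19*, named for lying downstream of DAF-16, and *gcy-18*, a guanylyl cyclase gene of thermosensory neurons. *dod-24* had 13.7 and 15.2 CPM in wild-type against 6.59 and 6.79 CPM in *xpc-1*, a fold of 0.468 (adjusted p = 0.000728 by edgeR). *dod-17* fell to 0.597 and *dod-19* to 0.667 of wild-type. *gcy-18* fell to 0.757 (adjusted p = 0.0451), and it was lost with any 1 of the 4 libraries left out (adjusted p of 0.0976 to 0.184).

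In *csb-1* the libraries stood far apart for some of these targets, as for many genes: 57.4% of all genes tested passed 2-fold between them. For replicates 1 and 2, *dod-24* stood at 0.854 and 57.6 CPM, *dod-17* had 3.12 and 60.9 CPM, and *dod-19* had 19.8 and 162 CPM. *gcy-18* had 13.3 and 47.5 CPM and *lys-7* 1.52 and 59.4 CPM, while *cki-1* went the other way with 95 and 22.8 CPM. Other genes that DAF-16 raises, named after their values were seen, differed in how far apart the libraries lay. They lay closer for *ctl-2* with 121 and 140 CPM, *lea-1* with 319 and 212 CPM and *mtl-1* with 9.14 and 7.41 CPM. The libraries lay further apart for *dod-3* with 2.01 and 9.7 CPM and *icl-1* with 1466 and 684 CPM. For *lys-7*, *gcy-18*, *dod-24*, *dod-17* and *dod-19*, one *csb-1* library was the highest of all 6. For *dod-24*, *dod-17* and *dod-19* the other was the lowest.

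Genes of the TOR and AMPK branches of growth control did not pass the test in *xpc-1*: none of 9 was called, with a median log2 fold change of 0.07. *let-363*, the TOR kinase gene, had 210 and 206 CPM in wild-type against 222 and 207 CPM in *xpc-1*. *rsks-1*, a kinase gene downstream of TOR, had 223 and 207 CPM in wild-type against 229 and 218 CPM in *xpc-1*.

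Over the 6 libraries, the genes whose log2 CPM most resembled *daf-16* among 9238 others with a mean of at least 10 CPM were *ztf-7* (Pearson's r = 0.999), *tag-151* (0.998) and *shk-1* (0.997). Those nearest to *daf-2* were *spr-2* (0.979), *acly-2* (0.977) and *ech-4* (0.973). These values describe 6 libraries of 3 strains, among which the *csb-1* pair holds much of the spread. *ztf-7* had 725 and 754 CPM in wild-type, 596 and 849 CPM in *csb-1* and 617 and 620 CPM in *xpc-1*, the same order of libraries as for *daf-16*.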

How the data were processed

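The authors aligned paired reads with STAR, kept proper pairs with high mapping quality, removed mitochondrial reads and counted reads on exons with featureCounts 2.0.4 on release 105 of the Ensembl annotation of WBcel235 (the methods name another WormBase release). The deposited values are raw counts per gene. Mates were counted apart, so counts are not independent molecules. The header options were alike in all 6 files. Library pairs differed by more than counting error, so each was 1 replicate. No sequences are printed.

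CPM and TPM were computed from the deposited counts. Genes that reached 10 counts in 2 or more libraries of a fit went into edgeR's quasi-likelihood test (glmQLFit, glmQLFTest, TMM) on the 4 libraries of the strains compared, with Benjamini-Hochberg adjustment over all genes tested. This departs from a single fit of 6 libraries, because the *csb-1* pair spreads far more than the others, and the fit of 6 is an alternative. Standard errors were taken from the log2 fold change and the F statistic. The procedure was run on data simulated from wild-type proportions with the same spread for all genes and libraries. Such data do not represent the *csb-1* pair, so they say nothing about its fits. Members, lists and fits were chosen with earlier results of these data known. All 10 members are named, with up to 4 genes per list by the size of a called change in *xpc-1*, or by CPM where fewer than 2 were called. Likeness used genes with a mean of at least 10 CPM. Alternatives were DESeq2, other scalings and filters, halved counts, a replicate block and leaving out libraries. R 4.3.3, edgeR 4.0.16, DESeq2 1.42.0, Python 3.11.15 and pandas 2.3.3 were used.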

Additional observations from a re-analysis of the deposited data

Results flagged for a closer look

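*daf-2*, the insulin receptor gene, was on opposite sides of wild-type in the mutants. Both *csb-1* libraries lay above both wild-type libraries (log2 fold change 0.29) and both *xpc-1* libraries below them (log2 fold change -0.06). Neither change passed edgeR's test against wild-type (adjusted p = 0.997 in *csb-1* and 0.635 in *xpc-1*). Of all genes tested, 13.6% lay above wild-type without overlap in *csb-1*, and 36.0% lay below in *xpc-1*. The difference between the mutants was not tested. With library size only, *csb-1* replicate 2 had 123 CPM of *daf-2* against 168 and 160 CPM in wild-type, so this side of the pattern rests on the scaling.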

How the results depend on the processing

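For *xpc-1*, the 6653 called genes became 0 with all 6 libraries in 1 fit, where 1 spread covers the *csb-1* pair too. With 1 library left out they ran from 4481 to 4904. For *csb-1*, the 0 called genes became 69 with DESeq2, 1 higher and 68 lower. With 1 library left out they ran from 0 to 9958, the high counts coming without either *csb-1* library: 9315 without replicate 1 and 9734 without replicate 2, and 9958 and 9389 with library size only, a pair of settings added after seeing the data. Library size only moved the median log2 fold change of all genes in *csb-1* by -0.24.

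With the replicate block the counts were 8850 in *xpc-1* and 0 in *csb-1*, where 214 genes had an unadjusted p under 0.05. The block called *akt-1* (adjusted p = 0.0161) and *akt-2* (0.00414) as well in *xpc-1*, by edgeR. *akt-2* was also called with upper-quartile factors (0.0176), with 10 counts in every library (0.0411) and with halved counts (0.0464). Of the 14 regulators the block called 9 higher and 5 lower, and upper-quartile factors 2 higher and 3 lower. Of all 17924 genes tested, the block called 4689 higher and 4161 lower, and upper-quartile factors 2992 higher and 3757 lower. The latter also moved the median log2 fold change of all genes in *xpc-1* by -0.08. Of the genes that DAF-16 raises, both settings called 3 lower. The numbers are not known to pair libraries: differences between replicates correlated at 0.126 across genes for wild-type with *xpc-1* and at -9.21e-05 with *csb-1*.

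Some log2 fold changes changed sign. In *xpc-1*, *age-1* was -0.054, *let-363* -0.016 and *rsks-1* -0.0072 with upper-quartile factors. In *csb-1*, with upper-quartile factors *pdk-1* was -0.022 and *akt-1* -0.054. With library size only *aap-1* was -0.012, *pdk-1* -0.13 and *akt-1* -0.14. With the block *akt-1* was -0.0031, and with DESeq2 or its size factors *daf-16* was 0.054. With 1 library left out, *age-1* ran from -0.034 to 0.068 and *ins-1* from -0.20 to 0.16 in *xpc-1*. In *csb-1*, over left-out libraries with TMM and the added fits with library size only, the ranges were -0.41 to 0.45 for *daf-2*, -0.16 to 0.39 for *age-1*, -0.43 to 0.31 for *aap-1*, -0.75 to 0.30 for *pdk-1*, -0.86 to 0.33 for *akt-1*, -0.080 to 1.42 for *sgk-1*, -0.38 to 1.22 for *daf-18* and -0.44 to 0.33 for *daf-16*. With TMM alone, *daf-2* (0.14 to 0.43), *age-1* (0.31 to 0.39), *aap-1* (0.12 to 0.29) and *daf-18* (0.17 to 1.20) kept their sign, and *pdk-1* ran from -0.20 to 0.28, *akt-1* from -0.31 to 0.31. *sgk-1* was -0.062 without replicate 2 with library size only. The cause was not tested. Each member had at least 683 reads in every library, with mates counted apart, and the part of depth was not tested.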
